A study of Mus musculus with 30 samples.

Results

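The nuclear- and mitochondrially encoded subunits of oxidative phosphorylation were followed across 8 sorted myeloid populations of glioma-bearing mice. Members were taken from the count table by gene symbol, as the Nduf, Sdh, Uqcr, Cox, Atp5 and mt- symbols of respiratory chain and ATP synthase subunits. Of 100 matching symbols, 3 pseudogenes were left out, which left 97 of the 45317 genes in the table. Of these, 84 are encoded in the nucleus (35 of complex I, 4 of complex II, 8 of complex III, 20 of complex IV and 17 of complex V) and lie on 19 chromosomes. Atp5s and Atp5sl are placed in complex V by name alone. The other 13 are encoded in mitochondrial DNA (7 of complex I, 1 of complex III, 3 of complex IV and 2 of complex V).

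Gene expression was measured by RNA sequencing of cells sorted from 4 mice of the strain C57BL6.CCR2RFP/WT, aged 12 to 18 weeks. All carried tumors of GL261, 1 glioma cell line, which expressed a membrane-bound GFP. Blood gave Ly6Chigh and Ly6Clow monocytes (3 mice each), and the brain gave glioma monocytes (3 mice), CCR2high macrophages (4 mice) and CCR2low macrophages (4 mice), each sorted as GFPpos or GFPneg. GFPpos marks cells that took up tumor-derived membrane, the brain sort was set to leave out microglia by CD45 and CD11b, and no healthy mice were analysed here. Mice are named here by the number in their sample titles, 22, 23, 24 and 26. Blood came from mice 22, 23 and 24, and glioma monocytes from mice 22, 24 and 26.

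Oxidative phosphorylation couples electron transfer along the inner mitochondrial membrane to the synthesis of ATP. Complex I takes electrons from NADH and complex II from succinate, complex III passes them to cytochrome c, complex IV gives them to oxygen, and complex V, the ATP synthase, uses the resulting proton gradient. Complexes I, III, IV and V combine subunits from both genomes, while complex II is wholly nuclear-encoded, and inflammatory activation of macrophages is known to shift their energy supply between this pathway and glycolysis.

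The 28 replicates held 1553616 to 5689644 counts on genes, with a median of 2140229.5. Levels are given as CPM, the count relative to the library total after TMM scaling (a factor that evens out composition between libraries), and differences as log2 fold changes from edgeR, called at an adjusted p under 0.05 across 11566 tested genes. Spike-in RNA was 0.284% to 13.3% of gene and spike-in counts together. The highest share belonged to the Ly6Clow replicate of mouse 23, which also had the fewest genes with 5 or more reads (6475) and stood for a first library left out with 3460 such genes. Its results are therefore given with and without it. In bulk RNA, fewer cells of a type and less RNA per cell cannot be told apart.

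Promoter sequence of 4 nuclear members is shown because these genes carry the results that follow or set their scale, Ndufv3 and Cox7a2 for brain against blood, Uqcrh for the blood populations, and Cox6a1 as the common partner of Cox6a2. Sequences are RefSeq windows on GRCm38.p6, read 5′ to 3′ on the gene's strand, and end before the first annotated transcript base. Capitals mark a match to the NRF-1 core GCATGCGC or to the ETS motif CCGGAAG, on either strand.
Ndufv3, chr17:31519865-31520114, plus strand: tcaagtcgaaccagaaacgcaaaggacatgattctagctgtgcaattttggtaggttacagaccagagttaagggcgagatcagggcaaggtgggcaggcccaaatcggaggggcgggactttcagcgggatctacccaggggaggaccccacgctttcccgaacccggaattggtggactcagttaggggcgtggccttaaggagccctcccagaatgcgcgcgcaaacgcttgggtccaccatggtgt
Cox7a2, chr9:79759879-79760103, minus strand: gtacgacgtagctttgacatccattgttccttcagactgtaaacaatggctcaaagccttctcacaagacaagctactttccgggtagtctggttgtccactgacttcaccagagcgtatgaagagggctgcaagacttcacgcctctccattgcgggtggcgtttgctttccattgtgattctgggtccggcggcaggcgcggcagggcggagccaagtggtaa
Uqcrh, chr4:116075072-116075320, minus strand: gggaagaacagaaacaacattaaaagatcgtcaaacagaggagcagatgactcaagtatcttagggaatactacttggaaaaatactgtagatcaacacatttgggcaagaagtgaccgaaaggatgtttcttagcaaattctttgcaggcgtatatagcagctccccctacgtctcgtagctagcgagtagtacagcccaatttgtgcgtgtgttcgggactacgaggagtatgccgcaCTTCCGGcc
Cox6a1, chr5:115348982-115349208, minus strand: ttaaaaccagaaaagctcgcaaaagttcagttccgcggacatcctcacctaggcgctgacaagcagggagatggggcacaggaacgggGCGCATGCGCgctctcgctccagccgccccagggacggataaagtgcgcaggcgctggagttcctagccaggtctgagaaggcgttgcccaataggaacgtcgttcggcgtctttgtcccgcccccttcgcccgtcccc

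A RefSeq window was found for 69 of the 84 nuclear members, and motifs were counted over the full windows, from 250 bases before to 50 after the start. The NRF-1 core was present in 10 of them (14.5%, against 2.80% of all 27025 windows), the ETS motif in 15 (21.7%, against 9.12%), the YY1 motif AAGATGGCG in 7 (10.1%, against 1.49%) and TATAAA in 7 (10.1%, against 14.2%). In Cox6a1 the NRF-1 core matched on both strands in overlapping runs that began at -162 and -160 relative to the start, and in Uqcrh the ETS motif began at -10. Neither Ndufv3 nor Cox7a2 held a match in the bases printed. These matches describe letters only, and factor binding was not measured.

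Of the 97 members, 86 passed the filter on low counts, 79 nuclear and 7 mitochondrial. The 5 nuclear members that did not were Cox4i2, Cox7b2, Cox8b, Cox8c and Ndufa4l2, with at most 133 counts each over all replicates and none for Cox8c. All are isoforms of a more widely used subunit. The 6 mitochondrial members that did not were mt-Nd3, mt-Nd4l, mt-Co2, mt-Co3, mt-Atp6 and mt-Atp8, with 1 to 100 counts each, while the 7 that passed held 8038 to 189254 counts.

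The mitochondrial members without usable counts lie where the nuclear genome holds a copy of mitochondrial DNA. A stretch of chromosome 1 (chr1:24611535-24616197, GRCm38) carries 7 annotated pseudogenes at 99% identity or more. These copies take in 99.6% of the mt-Atp6 transcript, 99.6% of mt-Co2, 99.9% of mt-Co3, 99.1% of mt-Nd3, 98.99% of mt-Nd4l and 21.1% of mt-Atp8, whose frame overlaps mt-Atp6 by 43 bases. Of the tested genes, mt-Nd4 had 63.6% of its transcript in such a copy and mt-Co1 31.3%, while mt-Cytb, mt-Nd1, mt-Nd2, mt-Nd5 and mt-Nd6 had 0%. Less similar copies on chromosome 2 take in all of mt-Co1 at 97.6% identity (Gm13340, 62 counts) and 49.1% of mt-Nd2 at 96.7% (Gm13339, 3 counts). mt-Nd5 had 52.3% of its transcript in an annotated copy at 95% identity or more, and mt-Cytb, mt-Nd1 and mt-Nd6 had 0% at that identity. The copy of mt-Nd3, Gm28438, held 934 counts and mt-Nd3 itself 3. The part of the copies in the low counts was not tested, and the levels of these 6 genes are not read here. mt-Nd5 and mt-Nd6 share 14 bases on opposite strands, and the strand setting of the counting is not given in the sources used here. Among nuclear members, 7 have a near-identical copy elsewhere (at least 95% identity over more than 50% of the transcript) and are uncertain to that extent, namely Atp5h, Atp5k, Atp5l, Atp5o, Ndufb11, Ndufs3 and Uqcrb.

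**Figure D1:**
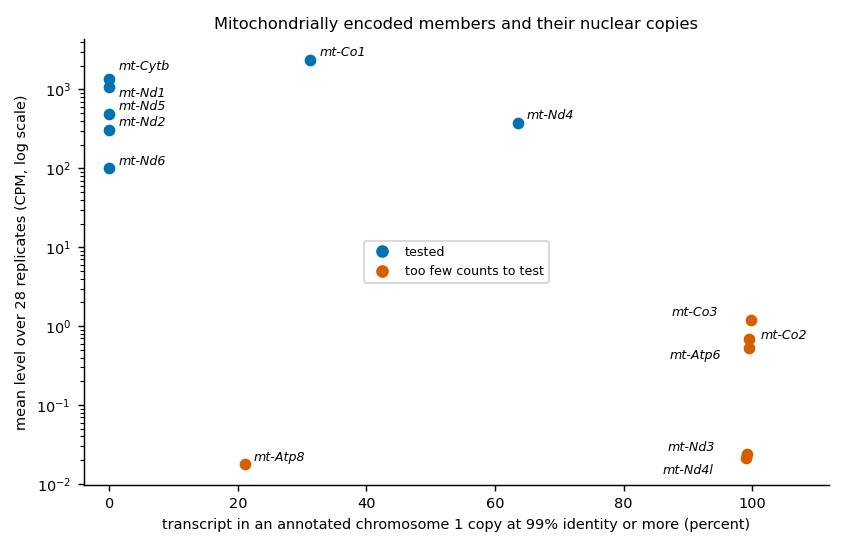
Mean level over 28 replicates (CPM, log scale) of the 13 mitochondrially encoded members against the percent of each transcript that lies in an annotated chromosome 1 copy at 99% identity or more. The 7 tested genes lie between 0% and 63.6%, and 5 of the 6 untested genes lie at 98.99% or above.

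Per kilobase of gene length, taken as all annotated exons merged, 3 mitochondrial members had higher mean levels than any of the nuclear members with a length. This length was 8086 bases for Ndufs1 and 6443 for Atp5l. It can exceed that of the transcript present, which lowers the value of such a gene. Over the 28 replicates, mt-Co1, the catalytic subunit of complex IV, had a mean level of 1546 CPM per kilobase, mt-Cytb, the cytochrome b of complex III, 1182, and mt-Nd1, a membrane subunit of complex I, 1108. The remaining 4 tested complex I subunits of the mitochondrial genome were lower, at 295 for mt-Nd2, 275 for mt-Nd4, 269 for mt-Nd5 and 192 for mt-Nd6. Full lengths were used, though 63.6% of the mt-Nd4 transcript and 31.3% of mt-Co1 lie in the chromosome 1 copy. Whether counts are missing there was not tested, so the values of these 2 genes are uncertain beside the others. Among nuclear members, small subunits of complex IV led, with 614 CPM per kilobase for Cox8a, 532 for Cox6a1 and 530 for Cox6b1. The lowest tested nuclear members were Cox6b2 at 3.72 and Atp5s at 3.74 CPM per kilobase. Medians of the nuclear members were 98.2 CPM per kilobase for complex I, 126 for complex II, 144 for complex III, 120 for complex IV and 118 for complex V, where Atp5o is missing because its gene has more than 1 model in the annotation.

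Summed over the nuclear members, the mean levels of the 8 populations ran from 14811 CPM ± 2956 (SD, n = 3) in Ly6Chigh monocytes to 18728 ± 3256 (SD, n = 3) in GFPpos glioma monocytes. The mitochondrial sum, which comes almost wholly from the 7 tested genes, varied more. It was 2870, 3391 and 3982 CPM in the Ly6Chigh replicates of mice 22, 23 and 24 and 5549, 15642 and 7128 in their Ly6Clow replicates. All Ly6Clow replicates lay above all Ly6Chigh ones, and that of mouse 23 stood far above the others. Among GFPneg brain cells the sum was 3746, 5699 and 3726 CPM in glioma monocytes, 4081, 3942, 5090 and 4906 in CCR2high macrophages, and 5126, 5969, 7737 and 7039 in CCR2low macrophages. CCR2low macrophages lay above CCR2high macrophages without overlap. With GFP, the mean was 7478 ± 2398 CPM (SD, n = 3) in glioma monocytes, 5012 ± 520 (SD, n = 4) in CCR2high and 8016 ± 939 (SD, n = 4) in CCR2low macrophages.

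**Figure D2:**
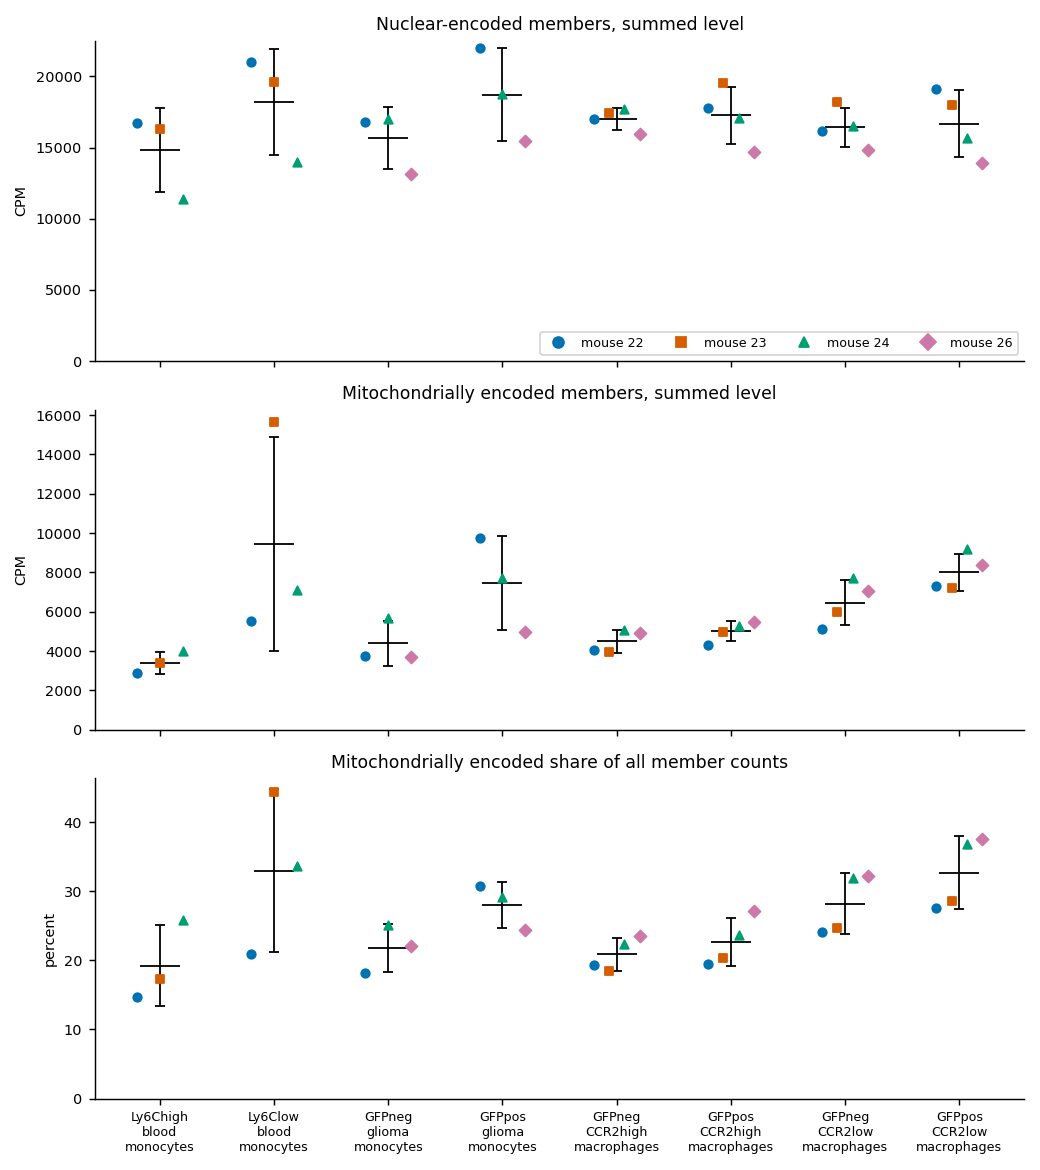
Summed level of the nuclear members (CPM), of the mitochondrial members (CPM), and the mitochondrial share of all member counts (percent) in the 8 populations; points are mice, lines are means and bars are SDs. The share averages 19.2% in Ly6Chigh monocytes and 33.0% in Ly6Clow monocytes, and 20.9% to 32.7% across the brain macrophages. Its mitochondrial part comes almost wholly from 7 of the 13 mitochondrial members.

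The share of member counts that came from mitochondrial DNA is a ratio within each library and does not depend on how libraries are scaled. It is a partial share, since 6 mitochondrial members had at most 100 counts each and add almost nothing to it. It was 14.6%, 17.2% and 25.9% in Ly6Chigh monocytes and 20.9%, 44.4% and 33.7% in Ly6Clow monocytes of the same mice, and Ly6Chigh minus Ly6Clow was -27.1 to -6.24 percentage points over the 3 mice. The populations overlapped, since the Ly6Chigh replicate of mouse 24 lay above the Ly6Clow replicate of mouse 22. In GFPneg CCR2high macrophages it was 19.4%, 18.4%, 22.3% and 23.5%, and in GFPneg CCR2low macrophages 24.045%, 24.7%, 31.9% and 32.1%. CCR2low exceeded CCR2high in 4 of 4 mice, by 4.67 to 9.59 points.

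GFPpos cells had a higher mitochondrial share than GFPneg cells of the same mouse and population in 11 of 11 pairs. In glioma monocytes the share was 18.2%, 25.1% and 22.05% in GFPneg and 30.8%, 29.1% and 24.4% in GFPpos cells. In CCR2high macrophages the GFPpos shares were 19.5%, 20.3%, 23.6% and 27.2%, above their GFPneg counterparts by only 0.103 to 3.69 points. In CCR2low macrophages they were 27.6%, 28.6%, 36.9% and 37.6%, above by 3.59 to 5.46 points. The nuclear sum was higher in GFPpos cells in 6 of the 11 pairs. These pairs come from 4 mice, the pattern was noticed in these data, and no test was made of it. In glioma monocytes spike-in RNA moved with it, at 3.59%, 5.16% and 0.612% of gene and spike-in counts in GFPpos against 0.596%, 0.742% and 0.319% in GFPneg replicates, and its part in the result was not tested. The GFPpos glioma monocyte replicate of mouse 22 sums 2 libraries.

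In blood, every tested mitochondrial member was lower in Ly6Chigh than in Ly6Clow monocytes at equal library totals, while spike-in scaling turned the direction. Ly6Chigh monocytes are the classical, inflammatory population and Ly6Clow monocytes the patrolling one. Of the 86 members tested, 10 were called, 9 lower and 1 higher in Ly6Chigh, where 5.61% of all genes were called (3.65% lower and 1.96% higher). The called members were all 7 of the mitochondrial genome, the nuclear genes Ndufa12 and Uqcrh, and Atp5s in the other direction. The median log2 fold change was -1.69 over the 7 mitochondrial members and -0.46 over the 79 nuclear members, 60 of them negative, against 0.02 over all genes. Nuclear medians were -0.47 for complex I, 0.06 for complex II, -0.44 for complex III, -0.55 for complex IV and -0.40 for complex V.

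mt-Co1 was at 1170, 1443 and 1646 CPM in the Ly6Chigh replicates and at 1948, 5041 and 2577 in the Ly6Clow replicates. The groups did not overlap, and the log2 fold change was -1.17 ± 0.28 (SE; adjusted p = 0.0121, edgeR). mt-Cytb was at 611, 692 and 835 CPM against 1173, 3168 and 1718, again without overlap. Its log2 fold change was -1.502 ± 0.28 (SE; adjusted p = 0.00154). Of the complex I subunits, mt-Nd1 was at 480, 570 and 657 CPM against 1092, 3112 and 1252, a log2 fold change of -1.68 ± 0.31 (SE; adjusted p = 0.00152). mt-Nd2, mt-Nd4, mt-Nd5 and mt-Nd6 fell by 1.70, 1.89, 1.69 and 1.70 on the log2 scale, with adjusted p from 0.00442 to 0.00968. For all 7 genes the Ly6Clow replicate of mouse 23 was the highest, and all Ly6Chigh replicates lay below all Ly6Clow replicates, as did 7.23% of all tested genes.

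Ndufa12, an accessory subunit of complex I, was at 48.3, 51.5 and 26.1 CPM in Ly6Chigh and 92.5, 160 and 44.7 in Ly6Clow monocytes. It was lower in Ly6Chigh within each of the 3 mice but the populations overlapped (log2 fold change -1.24 ± 0.34 SE, adjusted p = 0.0318, edgeR). Uqcrh, the hinge protein of complex III, was at 256, 210 and 135 against 383, 601 and 219 CPM, likewise lower within each mouse and overlapping (-1.002 ± 0.30 SE, adjusted p = 0.0486). Atp5s, named for coupling factor B, was close to the detection floor, at 1.12, 2.34 and 3.97 CPM in Ly6Chigh and 0, 0 and 0.592 in Ly6Clow monocytes. Its 25 counts against 2 gave a ratio of 12.2, with a 95% counting interval of 3.05 to 107 that covers counting error only (adjusted p = 0.027). No subunit of complex II was called, the smallest adjusted p there being 0.236.

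Leaving out the Ly6Clow replicate of mouse 23 left 3 called members, mt-Cytb, mt-Nd1 and mt-Nd2, which kept their calls with any other replicate left out too. mt-Co1, mt-Nd4, mt-Nd5 and mt-Nd6 were then at adjusted p of 0.18, 0.0818, 0.143 and 0.125. Without the Ly6Chigh replicate of mouse 23, mt-Co1, mt-Nd5 and mt-Nd6 were lost (0.077, 0.0628 and 0.0827), and without that of mouse 22, mt-Co1 (0.0872). Ndufa12 and Uqcrh were kept only without the Ly6Clow replicate of mouse 24 (otherwise adjusted p from 0.0546 to 0.332), and Atp5s only without that replicate or the Ly6Chigh replicate of mouse 22 (otherwise 0.0608 to 0.158). The count was 4 without the Ly6Chigh replicate of mouse 23 and 30 without the Ly6Clow replicate of mouse 24, and with the mouse as a block it was 19 (18 lower). Genes called in all numbered 649 of 11566 with every replicate, 513 of 11979 without the Ly6Clow replicate of mouse 23, 224 of 12061 without the Ly6Chigh replicate of mouse 23, 2444 of 11967 without the Ly6Clow replicate of mouse 24, and 922 of 11566 with the block. A fit of only the blood populations called 0 of 8928 genes and so 0 members, and DESeq2 called 18 members among 1369 of 11566 genes. Scaled by spike-ins, all 9 lower members turned to positive log2 fold changes of 0.46 to 1.16 and none was called. The median of all genes was then 1.69, and relative to it the 9 genes remained between -0.54 and -1.23. Spike-in RNA was 2.47%, 13.3% and 0.779% of gene and spike-in counts in Ly6Clow against 0.614%, 1.26% and 0.290% in Ly6Chigh replicates, and reads on no annotated gene were, of all reads counted, 12.0% to 17.4% against 8.86% to 12.5%. The summed level of 7 T and NK cell markers was 908 to 1500 CPM in Ly6Clow and 19.3 to 175 in Ly6Chigh monocytes, that of 5 B cell markers 847 to 1211 against 517 to 768, and that of 7 neutrophil markers 687 to 1105 against 163 to 574, with Camp and Ltf at 0 in Ly6Clow. Their part in the result was not tested.

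**Figure D3:**
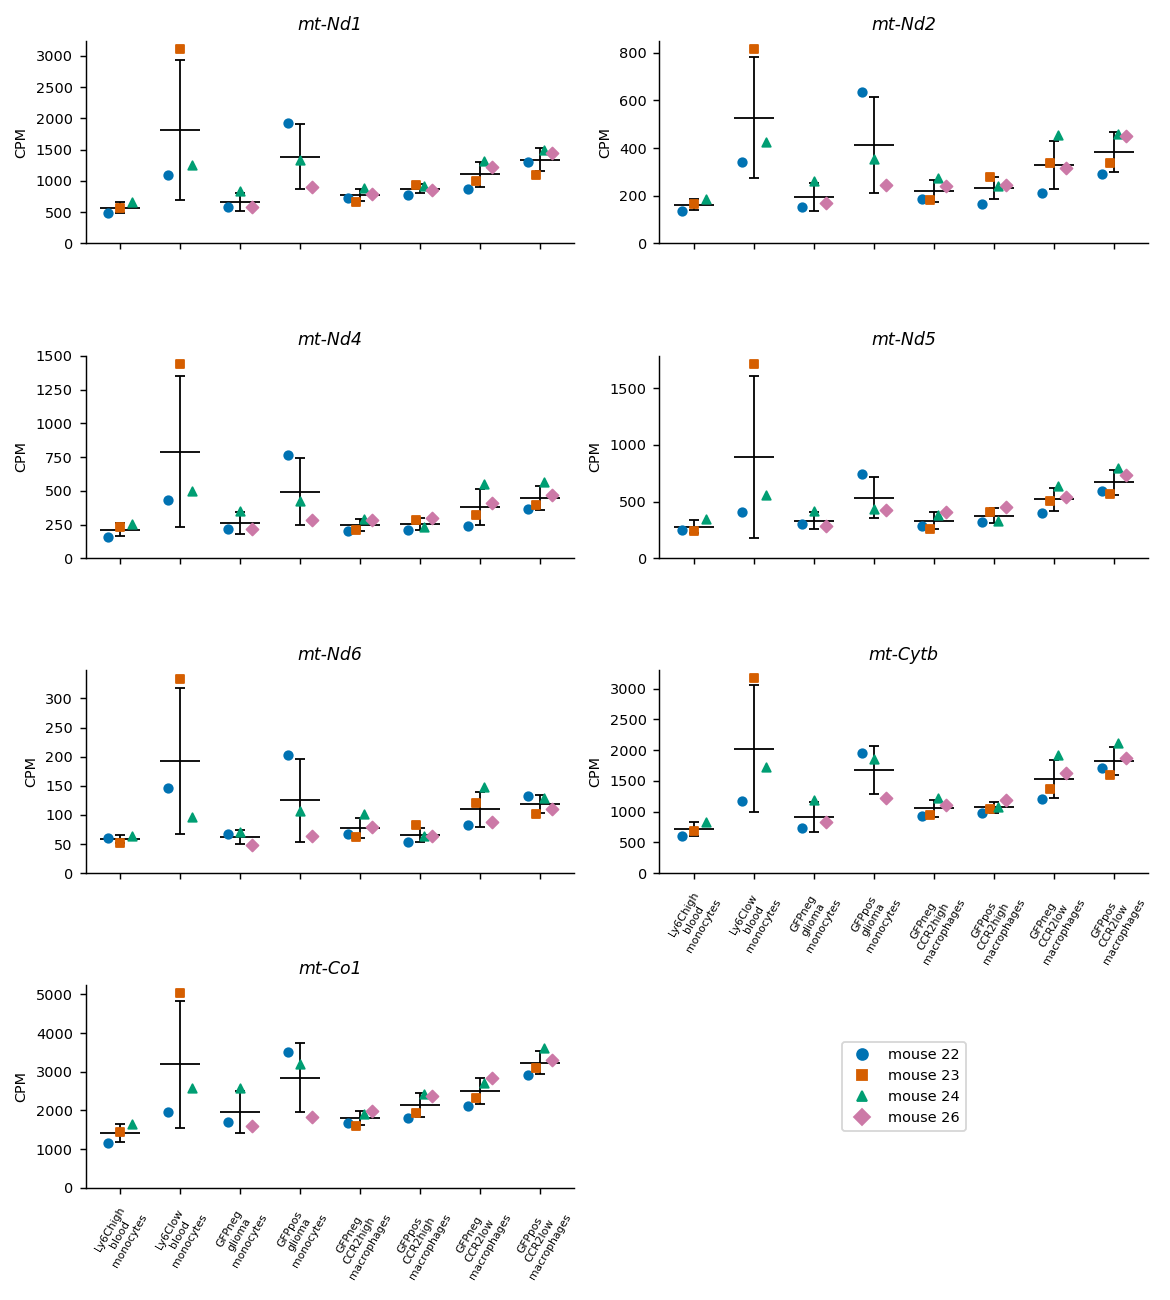
Level (CPM) of the 7 tested mitochondrially encoded members in the 8 populations; points are mice, lines are means and bars are SDs. In every panel the Ly6Clow replicate of mouse 23 is the highest Ly6Clow point, and the Ly6Chigh points lie below the Ly6Clow points, an order that turned in fold changes scaled by spike-ins.

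The brain populations without GFP were each compared with Ly6Chigh blood monocytes, so these 3 comparisons share their blood samples and are given side by side. In glioma monocytes 3 of the 86 tested members were called, all higher (13.8% of all genes were called, 11.1% higher and 2.68% lower). In CCR2high macrophages 8 were called, 7 higher and 1 lower (17.8% of all genes, 12.7% higher and 5.14% lower). In CCR2low macrophages 12 were called, all higher, 8 nuclear and 4 mitochondrial (20.2% of all genes, 14.1% higher and 6.09% lower). As shares of the 86 members, all 3 counts are below the share of all genes called. Groups that did not overlap, with the brain cells higher, were found in 21.6%, 21.8% and 21.1% of all genes. Median log2 fold changes of the 79 nuclear members were 0.12, 0.26 and 0.19, against 0.12, 0.15 and 0.17 for all genes. Those of the 7 mitochondrial members were 0.27, 0.39 and 0.91. Under spike-in scaling single mitochondrial members ran from -0.25 to 0.14 in glioma monocytes, where 5 of the 7 turned negative, from 0.15 to 0.47 in CCR2high and from 0.50 to 0.80 in CCR2low macrophages, and of the called members Cox6a2 alone stayed called.

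**Figure D4:**
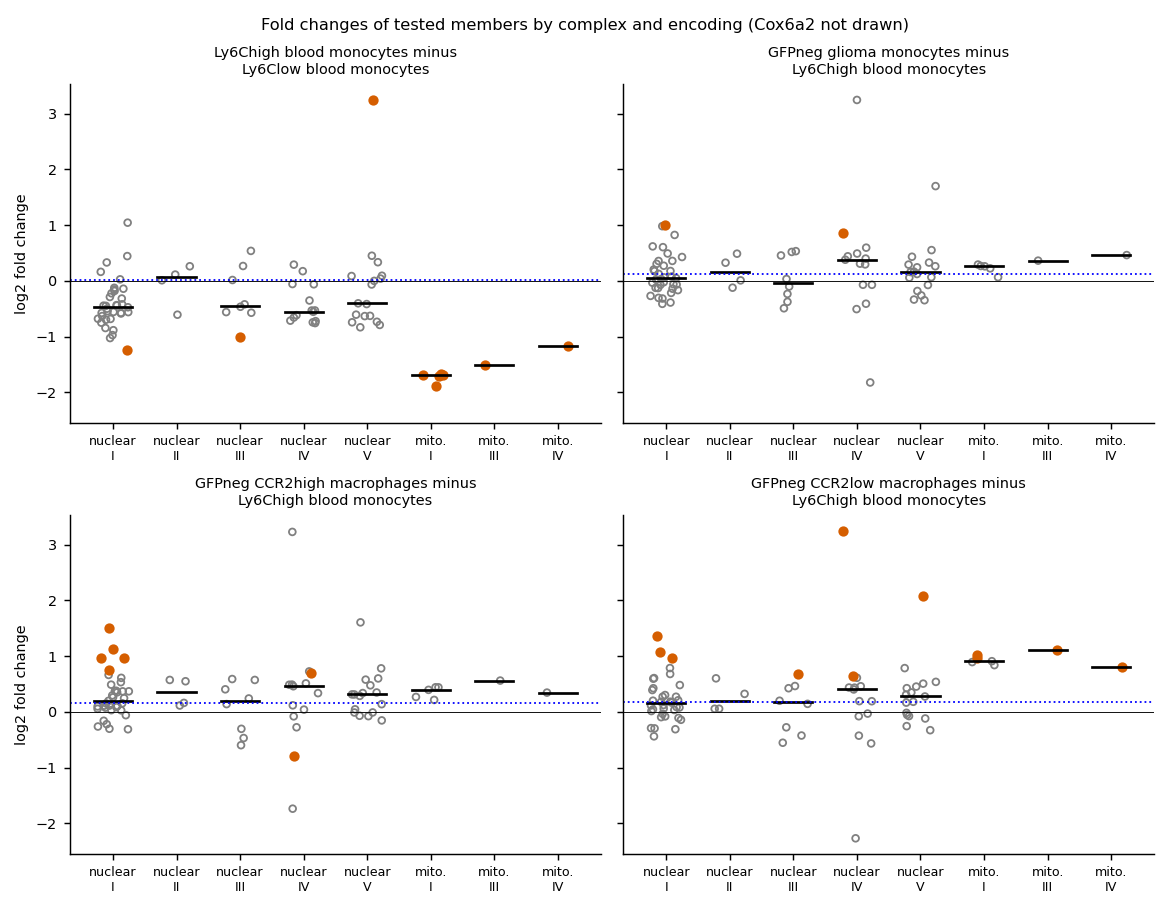
Log2 fold change of each tested member by complex and encoding in 4 comparisons; orange points are called, black lines are medians (Cox6a2 included) and dotted lines are medians of all tested genes. Cox6a2 is not drawn, and the mitochondrial median lies at -1.69 for Ly6Chigh against Ly6Clow monocytes and at 0.91 for CCR2low macrophages against Ly6Chigh monocytes.

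Cox6a2, the isoform of complex IV subunit 6a typical of heart and skeletal muscle, was the member with the largest difference between brain and blood. It was at 0 CPM in all 3 Ly6Chigh replicates and at 0, 0 and 0.296 CPM in the Ly6Clow replicates. In GFPneg cells it was at 28.1, 31.6 and 15.5 CPM in glioma monocytes, 13.9, 5.01, 11.8 and 4.80 in CCR2high macrophages, and 26.98, 21.5, 24.98 and 10.02 in CCR2low macrophages. In GFPpos cells it was at 53.4, 28.6 and 13.5 CPM, 18.6, 22.6, 14.5 and 9.78, and 28.1, 27.5, 16.7 and 6.28 in the same order of populations. All 22 brain replicates thus lay above all 6 blood replicates.

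Set against a floor of 3 counts per Ly6Chigh library, Cox6a2 was at least 18.5-fold higher in GFPneg glioma monocytes (adjusted p = 4.4e-06, edgeR). It was at least 6.53-fold higher in GFPneg CCR2high macrophages (adjusted p = 3.7e-05) and at least 15.4-fold higher in GFPneg CCR2low macrophages (adjusted p = 3.81e-06). The call was kept with every replicate left out in turn and under each other setting that could test it. Its common partner Cox6a1 was at a mean of 322 CPM in Ly6Chigh monocytes and 348 to 415 in the brain populations. Per length, Cox6a2 was 0% of the Cox6a1 and Cox6a2 sum in Ly6Chigh monocytes, 6.07% in GFPneg glioma monocytes (4.22% to 7.06%), 2.65% in GFPneg CCR2high macrophages (1.24% to 4.2003%) and 5.53% in GFPneg CCR2low macrophages (2.92% to 7.87%). Cox6a2 (chr7:128205435-128206387, minus strand) lies inside Itgad on the opposite strand, and Itgad was at 0 to 3.61 CPM in any replicate.

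Marker sums of several other cells also differed between Ly6Chigh monocytes and GFPneg brain cells. Among the latter, mean Cox6a2 was 25.1, 8.86 and 20.9 CPM in glioma monocytes, CCR2high and CCR2low macrophages. In these populations the median sum was 1453, 2030 and 3495 CPM for microglia markers and 675, 908 and 1198 for T and NK cell markers. It was 245, 136 and 232 CPM for dendritic cell markers and 509, 163 and 359 for plasmacytoid dendritic cell markers. The summed level of 6 microglia markers was 184 to 285 CPM in Ly6Chigh monocytes, with Sall1 and Siglech at 0, and 1439 to 2438, 1652 to 4001 and 2621 to 7575 CPM in the 3 GFPneg brain populations. That of 5 dendritic cell markers was 40.4 to 56.7 CPM against 192 to 297, 92.4 to 365 and 140 to 555. For 5 plasmacytoid dendritic cell markers, a list added after values were seen, it was 10.2 to 21.9 CPM, with Siglech and Klk1 at 0, against 352 to 660, 79.1 to 384 and 163 to 820. These lists are not independent, since Siglech belongs to the microglia, dendritic and plasmacytoid lists alike. Siglech alone was at 138 to 263, 56.5 to 287 and 117 to 540 CPM in the GFPneg brain populations, a large part of the dendritic sum. T and NK cell markers were at 19.3 to 175 CPM against 517 to 1177, 576 to 1742 and 1029 to 1934. Those of astrocytes, neurons and platelets were also higher in every GFPneg brain replicate. Oligodendrocyte markers (312 to 621 CPM against 91.6 to 122, 88.6 to 136 and 74.9 to 115) and monocyte/macrophage markers were lower. Those of B cells, neutrophils, erythroid and endothelial cells overlapped. The part of all these markers in the Cox6a2 result was not tested.

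Other paired isoforms were also read per length. Cox7a1, the muscle isoform of subunit 7a, was 0.555% of the Cox7a1 and Cox7a2 sum in Ly6Chigh monocytes and 2.11% to 3.60% in the brain populations. Cox6b2, known from testis, was 2.19% of the Cox6b sum in Ly6Chigh monocytes, 1.14% in Ly6Clow monocytes and 0.361% to 1.15% in the brain. Cox4i2 and Ndufa4l2 had no count in the 6 blood replicates and means of 0.258% to 1.11% and 0.582% to 1.79% of their pairs in the brain. Both failed the filter on low counts. Ndufa4l2 had 0 or 1 count in every brain replicate of mice 22 and 24, against 3 to 18 in those of mice 23 and 26. Among the 3 genes for the membrane ring subunit c of ATP synthase, Atp5g3 made up 57.4% to 67.2% of the sum, Atp5g1 17.2% to 22.9% and Atp5g2 13.997% to 23.3% in population means. The merged exon lengths used were 2181, 4912 and 1675 bases in that order, so these shares depend on the annotation. Mean levels before division by length were 274, 196 and 58.2 CPM.

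Ndufv3, an accessory subunit of the NADH-oxidizing part of complex I, was at 93.3, 80.2 and 62.5 CPM in Ly6Chigh monocytes. It was at 150, 178 and 143 CPM in GFPneg glioma monocytes, 144, 178, 123 and 164 in CCR2high and 143, 184, 134 and 155 in CCR2low macrophages. All brain replicates lay above all Ly6Chigh ones. The log2 fold changes were 0.9997 ± 0.26, 0.96 ± 0.25 and 0.97 ± 0.25 (SE; adjusted p = 0.0102, 0.00734 and 0.00606, edgeR). Without the Ly6Chigh replicate of mouse 24 these calls ended (adjusted p = 0.076, 0.066 and 0.056), and without the glioma monocyte replicate of that mouse the first did (adjusted p = 0.054).

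Cox7a2, the widely expressed isoform of subunit 7a, was at 143, 119 and 90.7 CPM in Ly6Chigh monocytes. It was at 223, 246 and 170 CPM in glioma monocytes, 204, 211, 176 and 176 in CCR2high and 168, 211, 191 and 165 in CCR2low macrophages. These brain replicates were again all above the Ly6Chigh replicates. Log2 fold changes were 0.86 ± 0.24, 0.70 ± 0.23 and 0.64 ± 0.23 (SE; adjusted p = 0.016, 0.0303 and 0.0437, edgeR). All 3 calls ended without the Ly6Chigh replicate of mouse 24 (adjusted p = 0.114, 0.188 and 0.234) or of mouse 23 (0.0636, 0.109 and 0.133). They also ended without the glioma monocyte replicate of mouse 22 or 24, the CCR2high replicate of mouse 22, 23 or 24, or any 1 CCR2low replicate (0.0504 to 0.116).

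Ndufa12 was at 89.3, 89.9 and 67.7 CPM in glioma monocytes, 127, 109, 132 and 105 in CCR2high and 93.6, 133, 98.5 and 101 in CCR2low macrophages, above its Ly6Chigh values in all replicates. It was called in CCR2high macrophages (log2 fold change 1.503 ± 0.33 SE, adjusted p = 0.00179, edgeR) and CCR2low macrophages (1.35 ± 0.33 SE, adjusted p = 0.00391). Leaving out any 1 replicate kept both calls. Ndufa5, an accessory subunit of the matrix arm of complex I, was at 36.5, 63.8 and 29.9 CPM in Ly6Chigh monocytes against 108, 102, 92.6 and 77.1 in CCR2high and 83.1, 114, 98.5 and 69.1 in CCR2low macrophages. The groups did not overlap (1.13 ± 0.35, adjusted p = 0.0244, and 1.08 ± 0.35, adjusted p = 0.0289). These calls ended without the Ly6Chigh replicate of mouse 22 (adjusted p = 0.117 and 0.128), without that of mouse 24 (0.152 and 0.168) and without the macrophage replicate of mouse 23 (0.0585 and 0.0841), and in CCR2low macrophages also without that of mouse 24 (0.0546).

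In CCR2high macrophages 3 further nuclear members were called. Ndufs3, a core subunit of complex I that has a near-identical copy, was at 76.9, 79.4, 83.3 and 72.3 CPM against 56.2, 42.2 and 40.3 in Ly6Chigh monocytes (log2 fold change 0.76 ± 0.23 SE, adjusted p = 0.0229, edgeR). Ndufs5, an accessory subunit of the membrane arm, was at 61.2, 63.4, 67.1 and 59.7 CPM against 41.0, 33.4 and 22.8 (0.96 ± 0.32 SE, adjusted p = 0.0348). For both genes the groups did not overlap. Ndufa4, first assigned to complex I and now counted with complex IV, was the only member called lower, at 95.2, 135, 137 and 114 CPM against 246, 247 and 135. Its highest macrophage replicates reached the Ly6Chigh replicate of mouse 24 (-0.79 ± 0.26 SE, adjusted p = 0.031). All 3 calls ended without the Ly6Chigh replicate of mouse 23 (adjusted p = 0.139, 0.111 and 0.105), and Ndufs3 and Ndufs5 also without that of mouse 24 or the macrophage replicate of mouse 23 or 24 (0.0645 to 0.2). Ndufs5 was lost too without the macrophage replicate of mouse 26 (0.0563), and Ndufa4 without the Ly6Chigh replicate of mouse 22 (0.0952) or the macrophage replicate of mouse 22 (0.0852) or 26 (0.0521).

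**Figure D5:**
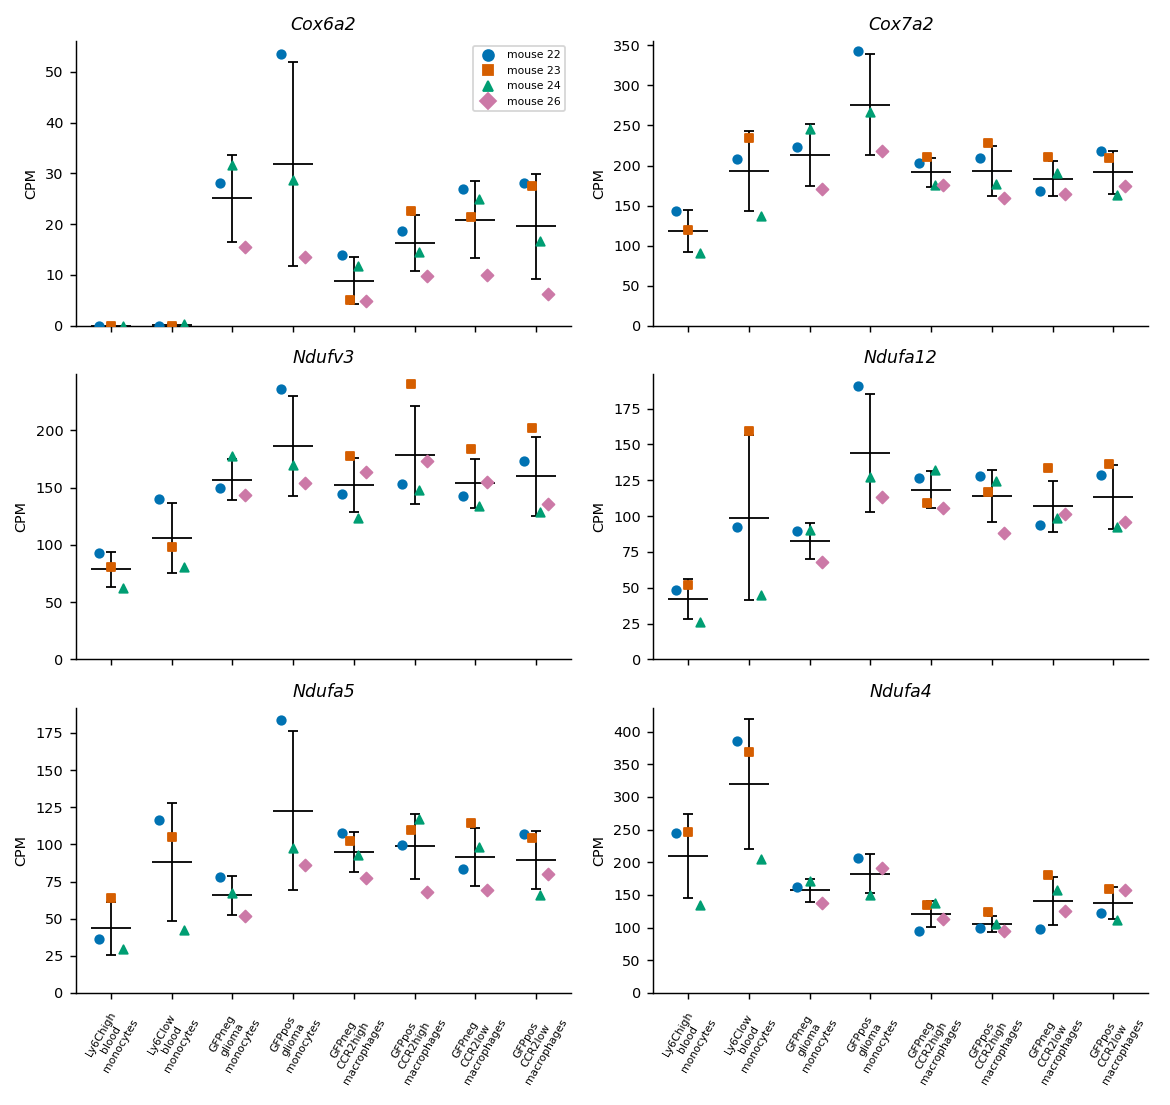
Level (CPM) of 6 nuclear-encoded members in the 8 populations; points are mice, lines are means and bars are SDs. Cox6a2 is at or near 0 in blood and above 4 CPM in every brain replicate, while Ndufa4 is lower in the CCR2high macrophages than in most blood replicates.

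In CCR2low macrophages 4 of the 7 tested mitochondrial members were called higher than in Ly6Chigh monocytes. mt-Cytb was at 1209, 1367, 1915 and 1624 CPM against 611, 692 and 835 (log2 fold change 1.10 ± 0.26 SE, adjusted p = 0.00304, edgeR), and leaving out any 1 replicate kept this call. mt-Nd1 was at 872, 1005, 1315 and 1226 CPM against 480, 570 and 657 (0.96 ± 0.29 SE, adjusted p = 0.018). mt-Co1 was at 2113, 2311, 2714 and 2835 CPM against 1170, 1443 and 1646 (0.81 ± 0.26 SE, adjusted p = 0.0273). In these 3 genes the groups did not overlap. mt-Nd2 was at 211, 338, 454 and 316 CPM against 138, 165 and 185 (1.02 ± 0.33 SE, adjusted p = 0.0287), also without overlap.

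The remaining mitochondrial members, mt-Nd4, mt-Nd5 and mt-Nd6, had log2 fold changes of 0.84, 0.91 and 0.89 and were not called (adjusted p = 0.115, 0.0598 and 0.0884, edgeR). Without the Ly6Chigh replicate of mouse 22 the calls of mt-Nd1, mt-Co1 and mt-Nd2 ended (adjusted p = 0.109, 0.16 and 0.142), and without that of mouse 23 likewise (0.0766, 0.1 and 0.106). Leaving out the macrophage replicate of mouse 24 also ended all 3 (0.0502, 0.0579 and 0.102). mt-Co1 was lost without the macrophage replicate of mouse 26 (0.0761), and mt-Nd2 without the Ly6Chigh replicate of mouse 24 (0.0588) or the macrophage replicate of mouse 23 (0.0541). Under spike-in scaling none of the 4 was called, with log2 fold changes of 0.57 to 0.80. The microglia markers given above were highest in the same macrophages, and their part in the mitochondrial levels was not tested.

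Also called in CCR2low macrophages were Uqcr10, a small subunit of complex III, at 204, 212, 193 and 182 CPM against 149, 143 and 81.1 (log2 fold change 0.67 ± 0.24 SE, adjusted p = 0.0454, edgeR), with no overlap. Atp5s was at 6.61, 21.5, 6.48 and 8.97 CPM against 1.12, 2.34 and 3.97 (2.07 ± 0.67 SE, adjusted p = 0.0294), and without its highest replicate, of mouse 23, the adjusted p was 0.147. Cox7a1 was at 5.51, 2.12, 0.925 and 6.33 CPM against 0, 0.586 and 0.418, or 33 counts against 3, a ratio of 8.996 with a 95% counting interval of 2.82 to 45.8 (adjusted p = 0.0468). Cox7a1 was not called with the mouse as a block (adjusted p = 0.0795). Without the Ly6Chigh replicate of mouse 22 or 23, Atp5s was not called (0.151 and 0.115). Uqcr10 was kept only without the Ly6Chigh replicate of mouse 22, and Cox7a1 only without the macrophage replicate of mouse 24 (otherwise adjusted p up to 0.288 and 0.166).

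The number of called members depended on single replicates in all 3 comparisons with Ly6Chigh monocytes. In glioma monocytes it was 1 without the Ly6Chigh or the glioma monocyte replicate of mouse 24. In CCR2high macrophages it was 4 without the Ly6Chigh replicate of mouse 23, 3 without that of mouse 24, and 4 and 5 without the macrophage replicates of mice 23 and 24. In CCR2low macrophages it was 6, 5 and 7 without the Ly6Chigh replicates of mice 22, 23 and 24, and 6 without the macrophage replicate of mouse 23 or of mouse 24. With the mouse as a block the counts were 8, 17 and 19. Over all genes, the calls numbered 1596, 2060 and 2340 with every replicate, fell to between 1018 and 1319, 1307 and 1791, and 1541 and 2079 in the fits just named, and rose to 1861, 2451 and 2671 with the block.

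Among GFPneg brain cells, CCR2high macrophages were compared with glioma monocytes and CCR2low with CCR2high macrophages. CCR2high macrophages and glioma monocytes differed in 0 members by edgeR and by DESeq2, against 0.182% of all genes (0.182% lower, 0% higher). Cox6a2 had the only unadjusted p under 0.05, beside 5.38% of all genes, with a log2 fold change of -1.53 (adjusted p = 0.652), and nuclear and mitochondrial medians were 0.11 and 0.18. Between CCR2low and CCR2high macrophages 0 members and 0% of all genes were called by edgeR, and DESeq2 called 0 members. All 7 mitochondrial members had positive log2 fold changes there, 0.47 to 0.64 with a median of 0.54, beside 0.01 for all genes and -0.06 for nuclear members, and 2 of them plus 1 nuclear member had an unadjusted p under 0.05, beside 2.39% of all genes. The summed microglia markers were at 2621 to 7575 CPM against 1652 to 4001, and their part was not tested.

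Tumor membrane uptake was also set against its absence within each brain population. In glioma monocytes 0 members and 0% of all genes were called by edgeR, and DESeq2 called 0 members. Unadjusted p-values under 0.05 were found for 9 nuclear and 5 mitochondrial members, all higher in GFPpos cells, against 6.39% of all genes. mt-Nd1, for instance, was at 1934, 1331 and 897 CPM in GFPpos and 581, 833 and 580 in GFPneg replicates, without overlap, as in 6.66% of all genes (log2 fold change 1.06 ± 0.30 SE, adjusted p = 0.638). Medians were 0.92 for mitochondrial members, 0.34 for nuclear members, 68 of 79 being positive, and 0.07 for all genes. Under spike-in scaling the median of all genes was -1.37 and all mitochondrial members turned negative (-1.17 to -0.66), though they lay 0.20 to 0.71 above that median.

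In CCR2high and CCR2low macrophages GFP separated 0 members and 0% of all genes by edgeR, 0 members had an unadjusted p under 0.05 (0.597% and 1.59% of all genes did), and DESeq2 called 0 members. Mitochondrial medians were 0.08 and 0.25 and nuclear medians 0.01 and -0.01. Log2 fold changes of single mitochondrial members ran from -0.23 to 0.24 in CCR2high and from 0.11 to 0.37 in CCR2low macrophages, and under spike-in scaling from -0.53 to -0.06 and from 0.61 to 0.87, where the medians of all genes were -0.27 and 0.36. A test of whether the difference with GFP varied among the 3 brain populations also called 0 members and 0% of all genes, with 0 members and 1.67% of all genes at an unadjusted p under 0.05.

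A list of 20 nuclear-encoded central subunits, mostly catalytic or electron-carrying, was also examined, and all were tested. It leaves out the core subunits of the mitochondrial genome, described above. In the 4 comparisons with called members, given in the order Ly6Chigh against Ly6Clow, then glioma monocytes, CCR2high and CCR2low macrophages against Ly6Chigh, 0, 0, 1 and 0 of them were called, and the 1 was Ndufs3. The counts of this and the next lists stand beside 5.61%, 13.8%, 17.8% and 20.2% of all genes called in the same comparisons. Their medians were 0.01, -0.01, 0.16 and 0.07. In blood their log2 fold changes ran from -0.61 for Sdhc, a membrane anchor of complex II, to 1.04 for Ndufs1, an iron-sulfur subunit of complex I. Against Ly6Chigh monocytes they ran from -0.49 (Uqcrc1) to 0.62 (Ndufs3) in glioma monocytes, from -0.60 (Uqcrfs1, the Rieske protein of complex III) to 0.76 (Ndufs3) in CCR2high and from -0.55 (Uqcrfs1) to 0.61 (Cox5a) in CCR2low macrophages. Succinate dehydrogenase, whose 4 subunits form complex II, was at means of 336, 350, 98.9 and 298 CPM for Sdha, Sdhb, Sdhc and Sdhd in Ly6Chigh monocytes and 349, 363, 150 and 372 in GFPneg CCR2low macrophages. None of these was called.

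Of 42 tested assembly factors, Uqcc2 and Coa3, which act on complexes III and IV, were lower in Ly6Chigh than in Ly6Clow monocytes (log2 fold changes -1.21 and -1.34, adjusted p = 0.00968 and 0.0178, edgeR). Ndufaf2, a complex I assembly factor related to Ndufa12, was at 12.7 ± 4.11 CPM (SD, n = 4) in CCR2high and 11.7 ± 2.42 (SD, n = 4) in CCR2low macrophages against 4.29 ± 1.69 (SD, n = 3) in Ly6Chigh monocytes (1.56 and 1.45, adjusted p = 0.0229 and 0.0307). The copper chaperone Cox17 was higher in glioma monocytes (1.38, adjusted p = 0.046) and CCR2high macrophages (1.26, adjusted p = 0.045), and Ndufaf7 was lower in glioma monocytes (-1.41, adjusted p = 0.0489). These 3 values lie close to the threshold.

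Among 12 genes of mitochondrial DNA maintenance and expression, Slirp, which stabilizes mitochondrial mRNAs, was at 37.1 ± 9.54 CPM (SD, n = 3) in Ly6Chigh monocytes. It was at 88.8 ± 9.80 (SD, n = 3) in glioma monocytes, 78.5 ± 12.0 (SD, n = 4) in CCR2high and 79.2 ± 16.7 (SD, n = 4) in CCR2low macrophages, with adjusted p of 0.00382, 0.0066 and 0.00541. Polg, the mitochondrial DNA polymerase, was lower in CCR2high macrophages (log2 fold change -2.30, adjusted p = 0.0168). Of 8 nuclear regulators of mitochondrial genes, Gabpb2 was lower in CCR2low macrophages (-2.15, adjusted p = 0.0106).

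Of 76 mitochondrial ribosomal proteins, 0 were higher and 4 lower in Ly6Chigh than in Ly6Clow monocytes, and 1 higher and 1 lower, 7 and 1, and 6 and 2 were called in glioma monocytes, CCR2high and CCR2low macrophages against Ly6Chigh. Mrpl13 was at 20.8 ± 2.15 CPM (SD, n = 3) in Ly6Chigh monocytes, 69.9 ± 2.61 (SD, n = 3) in glioma monocytes and 89.3 ± 10.1 (SD, n = 4) in CCR2high macrophages. Mrpl33 ran the other way, from 308 ± 94.1 CPM (SD, n = 3) to 146 ± 35.8 (SD, n = 3) and 120 ± 9.50 (SD, n = 4). Of 14 citric acid cycle genes, Idh3a and Mdh2 were higher in CCR2high (1.16 and 0.61) and CCR2low macrophages (1.04 and 0.58), with adjusted p from 0.00305 to 0.0499. Of 9 further subunits and carriers, Atpif1, the inhibitor of ATP synthase, was higher in both macrophage populations (1.03 and 0.96), and Etfb, which feeds electrons from fatty acid oxidation, was lower in Ly6Chigh than in Ly6Clow monocytes (-1.23).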

How the data were processed

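RNA from sorted cells was amplified with the SMARTer kit, which primes on poly(A), and sequenced as 75-bp pairs. Alignment by the authors used STAR on mm10. Picard took out duplicates, and htseq-count in intersection-strict mode on Gencode (GRCm38.p3) gave the deposited whole-number counts per gene, which were not normalized. Removal of duplicates can lower counts of short, abundant transcripts. Of 30 libraries, 1 failed the authors' rule (6000 genes with 5 reads) and 2 of 1 sample were summed, which gave 28 replicates.

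Tests used edgeR 4.0.16 (R 4.3.3): TMM, filterByExpr, and the quasi-likelihood test in 1 fit over the 8 populations, with Benjamini-Hochberg adjustment over all 11566 genes. p-values measure the spread between replicates within populations, as 1 estimate per gene pooled over the 8 populations. It is thus not the spread of only the populations compared. The main fit takes the 28 replicates as independent, though they come from 4 mice. DESeq2 1.42.0, spike-in scaling, count filters, each replicate left out and a mouse block were alternatives, and 1 more (a newer edgeR method) was chosen after seeing the data. The script was tested on simulated data. Same-numbered samples were taken as 1 mouse. Over 29 such pairs the correlation of deviations ran from -0.0826 to 0.674, and 19 exceeded 0.1.

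Members and gene lists were chosen with earlier results of these data known. Complexes were assigned by gene symbol, except that Ndufa4 and Ndufa4l2 were counted with complex IV. Atp5s and Atp5sl (Dmac2 in the annotation) stand with complex V by symbol only, and whether they are subunits was not examined. Values are given for called members, mitochondrial members, core subunits, paired isoforms and the members of the pathway lists called in a comparison (at most 4 per list). Lengths (all annotated exons of a gene merged) and positions came from GENCODE vM21 (97 of 97 matched, 96 under the same symbol), and sequences from RefSeq. Floors are 3 counts per library and intervals are exact at 95%. Both cover counting error only.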

Additional observations from a re-analysis of the deposited data

Results flagged for a closer look

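In the populations of 4 mice, 84 combinations of a called or mitochondrial member, or a summed level, with a population were examined for a replicate that stood apart from the other 3. In 3 the gap to the nearest replicate, relative to the range, exceeded Dixon's 95% critical value, and chance alone gives this in about 1 in 20. Atp5s was at 21.5 CPM in the GFPneg CCR2low macrophages of mouse 23, where the next replicate was at 8.97 and the lowest at 6.48. Cox7a1 was at 4.19 CPM in the GFPpos CCR2low macrophages of mouse 23, above 2.62 in the next replicate and 2.30 in the lowest. Uqcr10 was at 172 CPM in the GFPneg CCR2high macrophages of mouse 26, below 190 in the next replicate and 192 in the highest. No explanation of these values was tested.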

How the results depend on the processing

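Called members numbered 10 for Ly6Chigh against Ly6Clow monocytes and 3, 8 and 12 for glioma monocytes, CCR2high and CCR2low macrophages against Ly6Chigh. In that order, spike-in scaling gave 0, 1, 1 and 1, DESeq2 18, 7, 13 and 20, the mouse as replicate block 19, 8, 17 and 19, and the first library of each sample alone 2, 1, 2 and 7. The first-library setting puts back the Ly6Clow library of mouse 23 that failed the authors' rule, with 3460 genes at 5 or more reads. Requiring only 1 count in any library gave 1, 4 and 7 in the last 3 comparisons, and fitting only the populations compared gave 0 for blood, where it called 0 of 8928 genes. Leaving out 1 replicate gave 3 to 30, 1 to 3, 3 to 7 and 5 to 9. In these the cause was not tested. DESeq2 size factors, mitochondrial genes left out of totals, at least 10 counts in every library and the newer edgeR method kept each count within 1.5 times. The remaining comparisons stayed at 0 called members throughout (leaving out 1 replicate, 0 to 0). Spike-in scaling reversed Ndufa12 (1.01), Uqcrh (1.16), mt-Co1 (1.01), mt-Cytb (0.65), mt-Nd1 (0.67), mt-Nd2 (0.46), mt-Nd4 (0.56), mt-Nd5 (0.88) and mt-Nd6 (0.86) in blood, none of them called (adjusted p = 0.295 to 0.677). Of the values of named called members under all alternatives, 368 kept direction and call, 163 lost the call and 9 reversed. Genes of the pathway lists that are not members were not followed under these alternatives. The block ended the call of Cox7a1 alone and changed no other named call. Cox6a2 could not be tested at 10 counts in every library. Depth limits the genes near 3 counts, Cox6a2 in blood, Cox7a1 and Atp5s.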
